A study of Rattus norvegicus with 9 samples.

Results

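Principal cells of the collecting duct (PC) were followed here through 3388 nuclei, 6.36% of the 53298 rat kidney nuclei that were profiled for open chromatin by single-nucleus ATAC sequencing. A nucleus was counted as PC when the deposited annotation labelled it so, and its place on the deposited UMAP, a 2-dimensional map on which nuclei with similar accessibility lie close together, was found by its barcode. PC was the sixth most frequent of 12 labels. All rats were male Sprague-Dawley, the tissue was whole kidney and the labels give 6 weeks under age for every sample. The study collected kidneys at an early and a late time of treatment, and which of them each library came from is not given in the sources used here. Control rats were sham operated. DOCA rats had 1 kidney removed, drank salt water and received the mineralocorticoid deoxycorticosterone acetate at 50 mg/kg each week. Finerenone, Spironolactone and Amiloride rats were DOCA rats that also received these drugs at 10, 50 and 20 mg/kg per day. The DOCA model thus combines hormone, salt and the loss of 1 kidney. By the labels the kidney was also removed in all 3 drug groups, whereas the study's methods do not list the Amiloride group among the operated ones. Each group had 1 library made with the single-cell ATAC kit (scATAC) and 1 made with the Multiome kit, except Amiloride, which had only a Multiome library.

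Principal cells take up sodium through the epithelial sodium channel (ENaC), of which Scnn1b and Scnn1g encode subunits, and water through aquaporin 2 (Aqp2). The mineralocorticoid receptor (Nr3c2) raises ENaC activity in these cells, and the enzyme Hsd11b2 keeps glucocorticoids from occupying that receptor. Intercalated cells (IC), which handle acid and base, lie among principal cells in the same tubule wall. The distal convoluted tubule (DCT) lies upstream and is joined to the collecting duct by the connecting tubule, while the thick limb of the loop of Henle (LOH) lies upstream of the DCT. Finerenone and spironolactone block the mineralocorticoid receptor, and amiloride blocks ENaC itself. The values analysed here were labels and map positions, so accessibility at Aqp2, Scnn1b, Scnn1g, Nr3c2 and Hsd11b2 was not analysed here and the PC label stands as the authors assigned it, with no check against its markers. No label for connecting tubule was present among the 12. The study found connecting tubule cells when it divided its DCT and PC clusters further, so these labels may hold such nuclei.

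The libraries held between 1817 and 15235 nuclei and between 46 and 863 PC nuclei. Only 350 PC nuclei came from the 4 scATAC libraries, and 3038 came from the 5 Multiome libraries. Proximal tubule nuclei (PCT, PST and iPT, the proximal convoluted, proximal straight and injured proximal tubule) made up between 41.3% and 81.2% of a library, and Control held both extremes. The Amiloride library stood apart in its loop of Henle, which gave 13.9% of its LOH, DCT, PC and IC nuclei against 32.4% to 56.3% in the other 8 libraries. Over all pairs of libraries 1390 barcodes were shared, 180 of them with a PC nucleus on either side and 6 with a PC nucleus on both. Of the shared barcodes 1328 were between Multiome libraries, 59 between scATAC libraries and 3 across kits. Libraries of a kit draw on the same barcode list, and the number to be expected from that was not computed. A common stem in the library codes joins both DOCA libraries, both Spironolactone libraries, and Control Multiome with Amiloride. The code of the Amiloride library alone holds the word New where all others hold Old. What these words mark is not given, and it cannot be told apart from the drug. Nothing says that libraries came from separate rats, so the p-values below measure the spread between libraries, which may be technical. In limma that spread was pooled over the labels fitted together. For ratios of PC to other labels, 23.9 of the 26.9 degrees of freedom came from this pooling and 3 from the libraries. Those ratios share the same PC counts, so they are not independent. Intervals printed beside counts of a library are Clopper-Pearson (exact) at 95% and reflect counting error and nothing else. Shares cannot tell more nuclei of 1 label from fewer of the others.

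The first question was whether the weight of principal cells in the kidney differed between groups. PC nuclei made up 1.87% of all nuclei in the Control scATAC library (46 of 2455, interval 1.37% to 2.49%) and 6.50% in the Control Multiome library (331 of 5095, 5.84% to 7.21%). In DOCA they made up 6.15% (152 of 2471, 5.24% to 7.17%) and 9.44% (863 of 9143, 8.85% to 10.1%). The Control Multiome library thus lay above the DOCA scATAC library, and the groups overlapped on this scale. Finerenone libraries held 4.24% and 4.75% PC nuclei, Spironolactone libraries 2.76% and 4.95%, and the Amiloride library 9.71%. Within each kit DOCA was the highest of the 4 groups that both kits covered.

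Differences were tested on log2 odds with limma over all labels, with kit as a term. The PC odds among all nuclei were higher in DOCA than in Control by 1.18 ± 0.56 (log2, SE; Benjamini-Hochberg adjusted p = 0.119), and PC was not among the 3 of 12 labels (25%) that passed an adjusted p of 0.05. The difference from DOCA was -0.81 ± 0.56 in Finerenone (adjusted p = 0.271; 2 of 12 labels passed, 16.7%), -1.10 ± 0.56 in Spironolactone (adjusted p = 0.175) and -0.07 ± 0.72 in Amiloride (adjusted p = 0.99; 4 of 12 labels passed, 33.3%, LOH among them). In Spironolactone 0 of 12 labels passed (0%) in limma, and 3 did at an unadjusted p under 0.05. The Amiloride difference had no settled sign: within the Multiome kit its share lay above that of DOCA, leaving out 1 library gave -0.25 to 0.095, and without the kit term it was 0.38. Leaving out 1 library moved the Finerenone difference between -1.29 and -0.33. Over all alternatives the number of labels passing ran from 0 to 4 in Finerenone and from 0 to 7 in Amiloride, and 5 passed in Spironolactone when only its libraries and those of DOCA were fitted. Without the Control Multiome library the DOCA to Control difference was 1.82 (adjusted p = 0.00847), and without the Control scATAC library it was 0.53 (adjusted p = 0.527). Multiome libraries had higher PC odds than scATAC libraries by 0.89 ± 0.40 (adjusted p = 0.0779).

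Leaving out the proximal tubule brought the Control, the DOCA and the Spironolactone libraries closer together, and moved the Finerenone libraries apart. Among non-proximal nuclei the PC share was 9.96% and 11.1% in Control, 10.5% ± 0.785 (SD, n = 2), and 17.3% and 16.8% in DOCA, 17.0% ± 0.374 (SD, n = 2). Both DOCA libraries lay above both Control libraries, by 7.36 percentage points within the scATAC kit and 5.72 within the Multiome kit. Finerenone gave 13.3% and 10.1%, Spironolactone 11.5% (scATAC) and 12.1% (Multiome), and Amiloride 19.0%. The 4 libraries of Finerenone and Spironolactone lay below both DOCA libraries, and the Amiloride library lay above them. The kit difference on this scale was -0.07 ± 0.32.

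The test on this scale did not separate PC from the spread shared by all 9 non-proximal labels. The DOCA odds exceeded those of Control by 0.80 ± 0.45 (limma, adjusted p = 0.128), where 4 of 9 labels passed (44.4%), IC among them. The difference from DOCA was -0.64 ± 0.45 in Finerenone (adjusted p = 0.263), where 3 of 9 labels passed (33.3%), and 0.23 ± 0.57 in Amiloride (adjusted p = 0.697), where 4 of 9 passed (44.4%), LOH among them. In Spironolactone it was -0.62 ± 0.45 (adjusted p = 0.326), with 0 of 9 labels passing (0%) and 2 at an unadjusted p under 0.05. Finerenone and Spironolactone differed from each other by -0.02 ± 0.45 with a 95% interval from -0.95 to 0.90. The SE comes from a variance that limma pooled over labels, and the residual SD of PC alone was 0.195 against the 0.450 used.

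**Figure D1:**
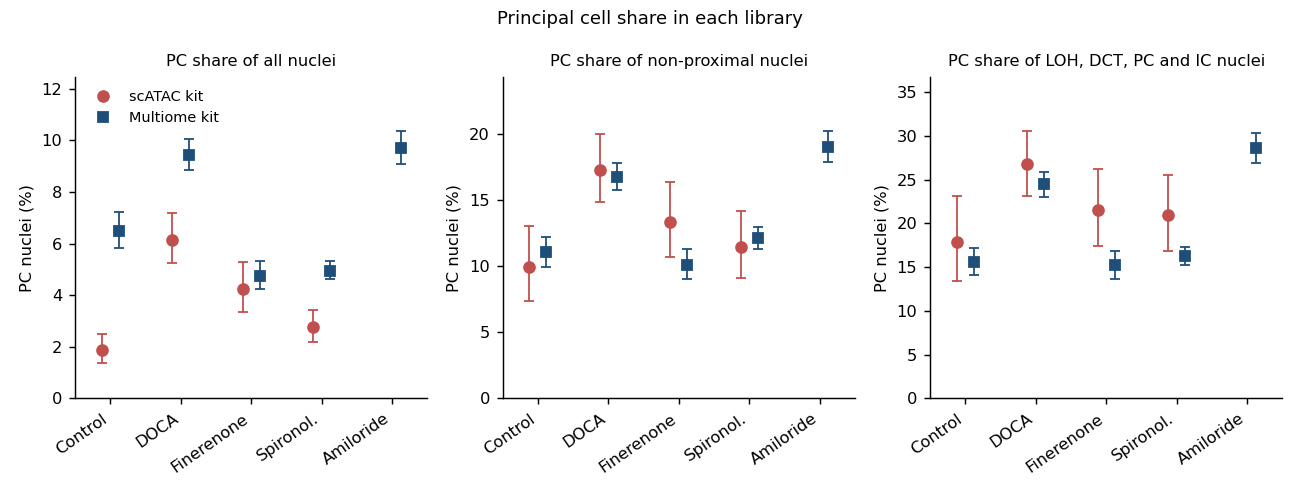
PC nuclei as a percentage of all nuclei, of non-proximal nuclei and of LOH, DCT, PC and IC nuclei (vertical axes, from 0) in the 9 libraries, by group. Circles are scATAC and squares Multiome libraries, and bars are exact 95% intervals; both DOCA libraries (16.8% and 17.3% of non-proximal nuclei) lie above the Control, Finerenone and Spironolactone libraries in the middle and right panels.

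Within the 4 labels of the loop of Henle and the distal tubule the same order was seen. PC nuclei made up 17.9% (46 of 257, 13.4% to 23.1%) and 15.6% (331 of 2125, 14.1% to 17.2%) of LOH, DCT, PC and IC nuclei in Control. In DOCA they made up 26.8% (152 of 568, 23.2% to 30.6%) and 24.5% (863 of 3528, 23.0% to 25.9%). Finerenone gave 21.6% and 15.2%, and Spironolactone gave 20.9% (scATAC) and 16.3% (Multiome). The Amiloride library had the highest share of all at 28.6% (799 of 2790, 27.0% to 30.4%).

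The DOCA odds exceeded those of Control by 0.77 ± 0.34 on this scale (limma, adjusted p = 0.0865), and 1 of the 4 labels passed (25%). That label was IC, whose odds fell by 1.65 ± 0.36 (adjusted p = 0.00248). The IC call was lost without the Control scATAC library (-1.34, adjusted p = 0.0755) and without the DOCA scATAC library (-1.10, adjusted p = 0.0523). The PC difference from DOCA was -0.63 ± 0.34 in Finerenone (adjusted p = 0.121) and -0.60 ± 0.34 in Spironolactone (adjusted p = 0.212), with 0 of 4 labels passing in each (0%) and 2 and 1 at an unadjusted p under 0.05. From Control those groups differed by 0.14 ± 0.34 (interval -0.60 to 0.89; 1 of 4 labels passed, 25%, which was IC) and 0.17 ± 0.34 (interval -0.57 to 0.92; 0 of 4 passed, 0 also unadjusted). The IC call in Finerenone against Control was lost without the kit term. Amiloride exceeded DOCA by 0.41 ± 0.44 (adjusted p = 0.367; 2 of 4 passed, 50%, which were LOH and IC). The IC difference there, 1.38, moved between 0.97 and 2.08 on leaving out 1 library, and its call depended on which library was left out. With LOH taken out of the denominator 0 labels passed in Amiloride against DOCA.

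Amiloride exceeded Control by 1.18 ± 0.44 (limma, adjusted p = 0.0294), the only one of these PC differences to pass, where 3 of 4 labels did (75%). The others were LOH, which was lower by 2.15 ± 0.45, and DCT, which was higher by 1.19 ± 0.45. The DCT difference did not pass without the Control scATAC library (adjusted p = 0.134) or without either Spironolactone library (0.0577). Leaving LOH out of the denominator, a choice made after seeing the Amiloride library, gave PC shares of 29.5% and 25.7% in Control, 42.9% and 36.6% in DOCA, 38.7% and 34.8% in Finerenone, 31.0% and 29.2% in Spironolactone and 33.3% in Amiloride. On that scale Amiloride exceeded Control by 0.51 (adjusted p = 0.0624) and lay 0.27 below DOCA (adjusted p = 0.198), while DOCA exceeded Control by 0.79 (adjusted p = 0.00436), Finerenone exceeded Control by 0.61 (adjusted p = 0.0131) and Spironolactone lay 0.61 below DOCA (adjusted p = 0.0126). These fits pool the spread of 3 labels only. Without either Control library the Amiloride difference over 4 labels did not pass (adjusted p = 0.111 without the scATAC and 0.0752 without the Multiome library), nor did it without either Spironolactone library (adjusted p = 0.0577). Without the kit term neither PC (0.99) nor DCT (1.01) passed (adjusted p = 0.0773 for both).

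The second question was how PC moved against single labels, and against intercalated cells first, since both share 1 tubule wall. There were 0.780 PC nuclei per IC nucleus in the Control scATAC library (46 to 59, interval 0.518 to 1.17) and 0.676 in the Control Multiome library (331 to 490, 0.586 to 0.778). DOCA libraries had 4.75 (152 to 32, 3.23 to 7.19) and 1.88 (863 to 459, 1.68 to 2.11). Control was thus the only group in which IC outnumbered PC in both libraries, and both DOCA libraries lay above both Control libraries. Finerenone had 2.08 and 1.05, Spironolactone 1.32 and 0.987, and Amiloride 1.26. Within each kit the order from low to high was Control, Spironolactone, Finerenone and DOCA, with Amiloride between Finerenone and DOCA in the Multiome kit.

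The PC to IC ratio was 4.09-fold higher in DOCA than in Control (95% interval 1.92 to 8.70; log2 difference 2.03 ± 0.53, limma, adjusted p = 0.00358), and higher in 2 of 2 kits. It rose together with most ratios of PC to another label: 7 of 11 passed (63.6%), 6 upward, the lowest adjusted p being that of podocytes, the filtration cells of the glomerulus (Podo, log2 difference 3.24 ± 0.56), followed, beside IC, by myofibroblasts, which are contractile matrix-forming cells (MyoFib, 1.99 ± 0.54). With only the DOCA and Control libraries fitted, 0 of 11 passed (adjusted p = 0.0724 for IC and 0.0606 for Podo). All 11 ratios hold the same PC counts and are not independent, and a ratio cannot tell more PC from fewer IC. The leading ratios rest on few nuclei, with 9 Podo and 5 MyoFib nuclei in the DOCA scATAC library and 8 MyoFib nuclei in Control scATAC. The IC share of the 4 labels was 23.0% and 23.1% in Control and 5.63% and 13.0% in DOCA. Without the DOCA scATAC library, which holds 32 IC nuclei, the log2 difference was 1.64 and did not pass (adjusted p = 0.139), nor did that of the ratio to MyoFib (1.70, adjusted p = 0.139).

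Against DOCA, the ratio to IC was lower in Spironolactone by 1.38 ± 0.53 on the log2 scale (limma, adjusted p = 0.0409), a ratio 2.61-fold lower and lower in 2 of 2 kits. Here 4 of 11 ratios passed (36.4%), with PST and PCT leading (-2.01 ± 0.59 and -1.78 ± 0.58). This call was lost without either DOCA library (adjusted p = 0.449 without scATAC and 0.124 without Multiome) and without either Spironolactone library (0.566 without scATAC and 0.145 without Multiome). The calls for PST and PCT were lost without each of these 4 libraries too, with an adjusted p from 0.0936 to 0.285. Without the kit term 0 of 11 ratios passed, with an adjusted p of 0.182 for IC. In Finerenone the ratio to IC differed from DOCA by -1.01 ± 0.53 (adjusted p = 0.121), lower in 2 of 2 kits, where 2 of 11 ratios passed (18.2%), those to Podo and MyoFib. Both calls were lost when either the DOCA scATAC library (0.084 and 0.226, adjusted p) or the Finerenone Multiome library (0.0752 and 0.2) was left out, and that of MyoFib also without the DOCA Multiome library (0.104). In Amiloride it differed by -0.87 ± 0.68 (adjusted p = 0.233), and the 2 of 11 ratios that passed (18.2%) were those to macrophages (Mac, 2.87 ± 0.74) and iPT (2.33 ± 0.69). Neither passed without the DOCA Multiome library (adjusted p = 0.238 for both), nor iPT without the DOCA scATAC library (0.092). Finerenone and Spironolactone were not shown to differ from each other, with a fold of 1.29 (interval 0.607 to 2.75, adjusted p = 0.652).

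Set against Control, the ratio to IC was 2.02-fold in Finerenone (interval 0.950 to 4.31, adjusted p = 0.365), 1.57-fold in Spironolactone (0.735 to 3.34, adjusted p = 0.643) and 2.24-fold in Amiloride (0.855 to 5.87, adjusted p = 0.178). In limma 0 of 11 ratios passed in Finerenone (0%, and 0 unadjusted), 1 of 11 in Spironolactone (9.09%, to Podo) and 4 of 11 in Amiloride (36.4%). The Podo call was lost without the Spironolactone Multiome library, and without the DOCA scATAC library 2 of 11 passed in Amiloride. All comparisons with DOCA rest on the same 2 DOCA libraries, and all with Control on the same 2 Control libraries.

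PC and DCT nuclei kept the narrowest ratio across libraries. There were 0.902 and 0.710 PC nuclei per DCT nucleus in Control, 0.894 and 0.831 in DOCA, 0.906 and 1.09 in Finerenone, 0.682 and 0.708 in Spironolactone and 0.822 in Amiloride. The highest value was 1.60 times the lowest, against 3.83 times for the next narrowest ratio (to endothelium) and 7.03 times for the ratio to IC. The 2 Spironolactone libraries were the lowest of the 9, below DOCA by 0.212 in the scATAC kit and by 0.123 in the Multiome kit, and the Finerenone libraries were the highest. The DOCA to Control fold was 1.08 with an interval from 0.513 to 2.26 (limma, adjusted p = 0.841). The interval rests on an SD pooled over the ratios of 0.521, whereas the residual SD of the ratio to DCT alone was 0.182. Folds against DOCA were 1.15 in Finerenone (0.549 to 2.42), 0.807 in Spironolactone (0.384 to 1.69) and 0.965 in Amiloride (0.375 to 2.48).

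The ratio to LOH was 0.455 and 0.395 in Control, 0.710 and 0.740 in DOCA, 0.487 and 0.270 in Finerenone, 0.647 and 0.367 in Spironolactone and 2.06 in Amiloride. The Amiloride library was the only one with more PC than LOH nuclei. Its ratio was 5.68-fold that of Control (interval 2.18 to 14.8; limma, adjusted p = 0.0051) and 3.33-fold that of DOCA (1.28 to 8.69; adjusted p = 0.0576). The log2 difference from DOCA, 1.74, moved between 1.48 and 2.17 on leaving out 1 library, and whether it passed depended on that library. The DOCA to Control fold was 1.70 (0.803 to 3.61; adjusted p = 0.192). A single library carries each Amiloride value, and the model takes it to vary as libraries of the other groups did.

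**Figure D2:**
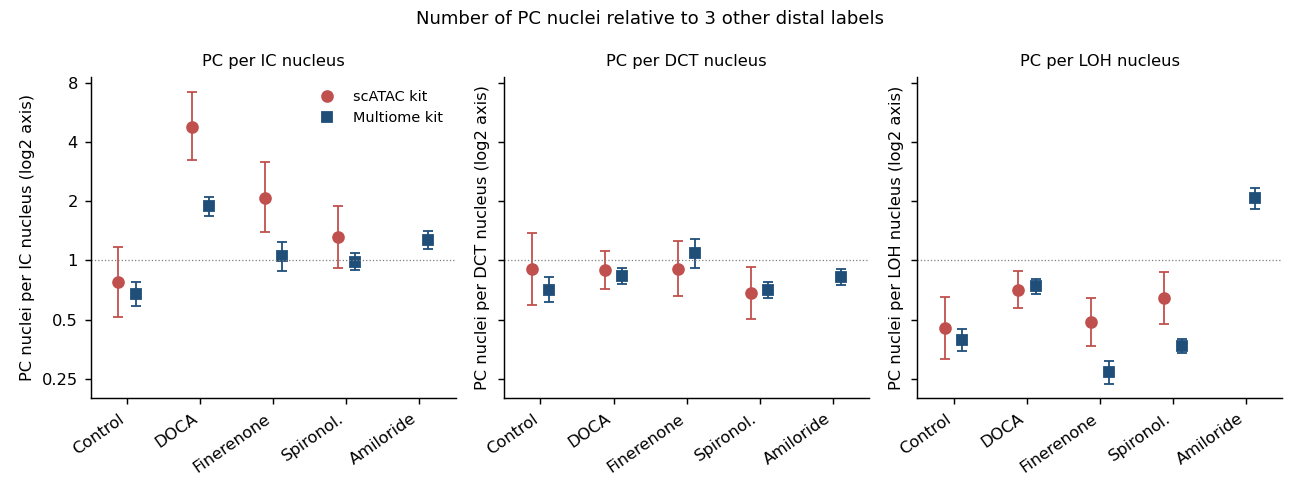
PC nuclei per IC, DCT and LOH nucleus (vertical axes, log2 scale) in the 9 libraries, with exact 95% intervals; circles are scATAC and squares Multiome libraries, and the dotted line marks equal numbers. The ratio to IC ranges from 0.676 to 4.75 and that to DCT from 0.682 to 1.09, and the Amiloride library alone exceeds 1 on the ratio to LOH.

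The third question was where PC nuclei lay on the map and how they met the DCT. When nuclei within 0.3 map units were linked, the map fell into 5 islands, and 3357 PC nuclei (99.1%) lay in 1 island with 4115 DCT nuclei (97.4% of that label). PC made up 43.5% and DCT 53.3% of the island, and the next label, LOH, 1.05%. The DCT centre was the nearest to that of PC at 3.47 map units, whereas the centre of IC, the neighbour of PC in the tubule wall, lay 11.3 units away, and 26 IC nuclei (0.926% of that label) fell in the PC and DCT island. Of the 31 PC nuclei outside the island, 11 had PCT as their leading other neighbour, 4 LOH and 4 endothelium. Between 0 and 12 came from a library, at most 1.39% of its PC nuclei. The 3 libraries with 0 such nuclei were scATAC libraries of 46, 77 and 75 PC nuclei, whose intervals reached 7.71%, 4.68% and 4.80%. Distances on a UMAP have no unit and do not scale with differences in accessibility.

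Among the 15 nearest nuclei of a PC nucleus, 88.6% were PC, 7.53% DCT, 1.17% PCT, 0.923% LOH and 0.506% IC. By this measure PC ranked 10th of 12 labels in how far its nuclei kept to their own label, below DCT at 89.5%, while IC ranked 2nd. Of all PC nuclei, 1625 (48.0%) had only PC neighbours, and 1244 (36.7%) had at least 1 DCT neighbour. Few lay deep within the DCT, as 86 (2.54%) had 8 or more DCT nuclei among the 15. From the other side, 628 of 4225 DCT nuclei (14.9%) had a PC neighbour.

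The PC nuclei of the island were divided into 4 parts by k-means on the map positions, after the map had been seen: 667 nuclei lay in an upper part, 1007 in a middle part, 1028 in a lower part and 655 in the left arm. The arm was the part most mixed with other labels. There, 86.9% of PC nuclei had a DCT neighbour, against 25.2% in the upper, 34.1% in the middle and 15.7% in the lower part, and 71.0% of the neighbours were PC against 90.4% to 95.3% elsewhere. It also had the highest shares with an IC neighbour (18.5% against 1.20% to 2.72%), an LOH neighbour (24.9% against 1.49% to 9.90%) and a proximal neighbour (35.9% against 9.04% to 25.8%). These values describe the parts and were not tested.

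The arm held 15.2% and 11.5% of PC nuclei in Control, 24.3% and 23.1% in DOCA, 28.6% and 21.3% in Finerenone, 13.3% and 16.6% in Spironolactone and 19.4% in Amiloride. The DOCA and Finerenone libraries lay above all the others in this share. The middle part held 42.6% of PC nuclei in Amiloride and between 23.1% and 34.7% in the other libraries, and the lower part held from 14.3% (Finerenone scATAC) to 40.2% (Finerenone Multiome), so the 2 Finerenone libraries marked both ends of the lower share.

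**Figure D3:**
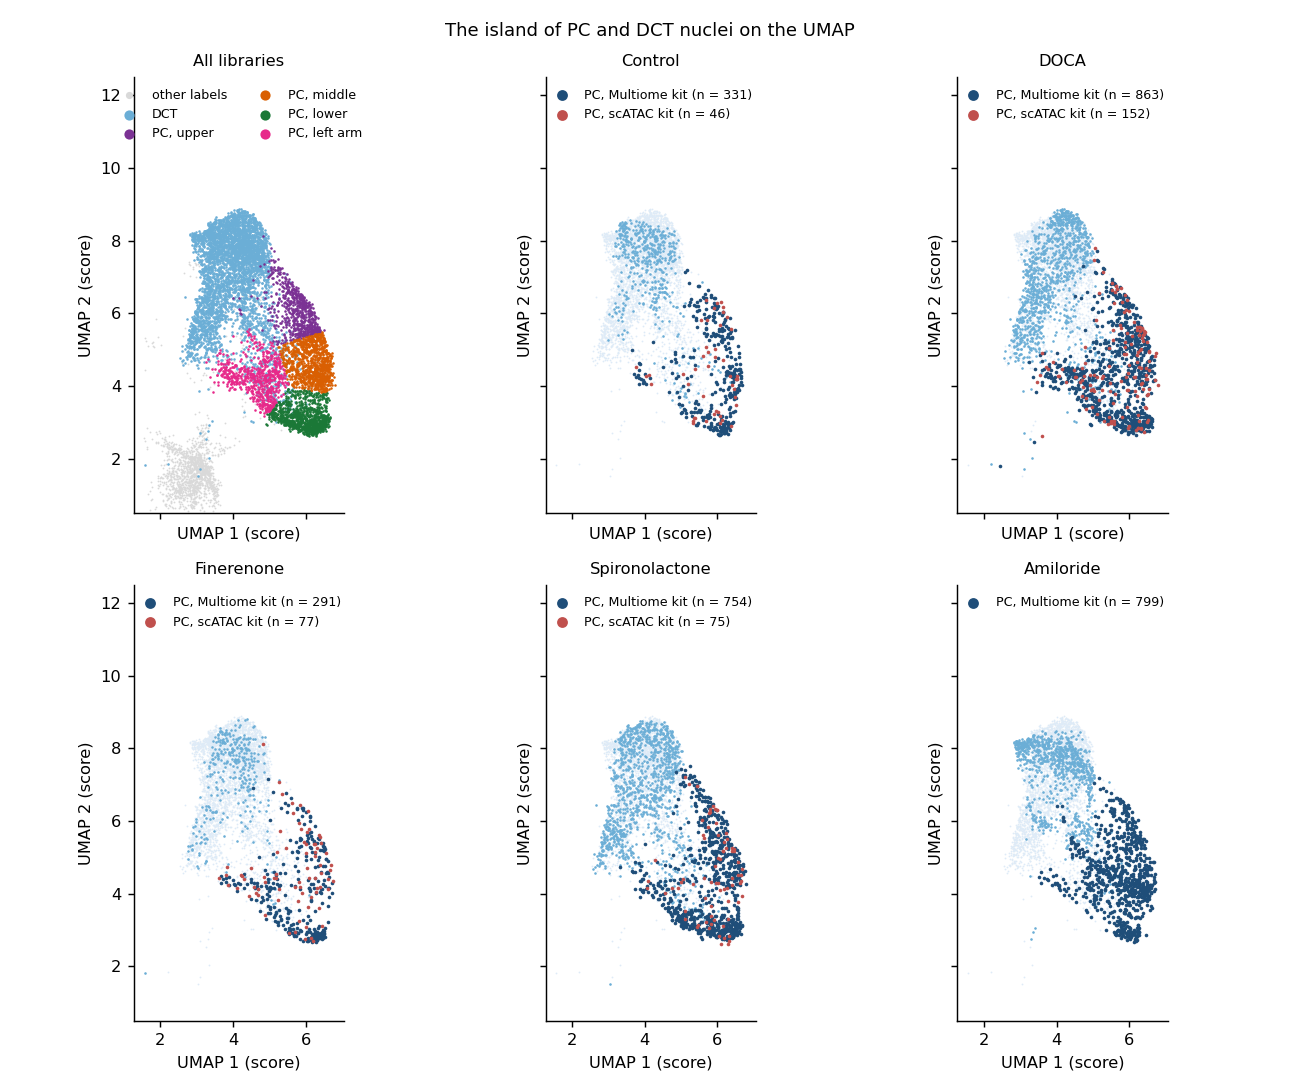
UMAP positions (both axes in UMAP scores, no unit) around the island of PC and DCT nuclei. The first panel shows all libraries with the 4 parts of the PC nuclei, DCT and other labels, and the others show 1 group each, with PC nuclei by kit, that group's DCT nuclei in blue and all DCT nuclei in pale blue; in Amiloride the middle part holds 42.6% of PC nuclei.

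The share of PC nuclei with a DCT neighbour was 32.6% (15 of 46, interval 19.5% to 48.0%) and 24.2% (80 of 331, 19.7% to 29.2%) in Control. It was 42.1% (64 of 152, 34.2% to 50.4%) and 40.1% (346 of 863, 36.8% to 43.5%) in DOCA, above both Control libraries. Finerenone had 41.6% and 30.2%, Spironolactone 28.0% and 31.8%, and Amiloride 44.8%. The log2 odds were higher in DOCA than in Control by 0.82 ± 0.43 (limma, adjusted p = 0.19), which did not pass. The SE comes from a variance pooled over the 11 neighbour labels, and with a trended, robust prior the limma adjusted p was 0.0365. Differences from DOCA were -0.33 ± 0.43 in Finerenone (adjusted p = 0.699), -0.70 ± 0.43 in Spironolactone (adjusted p = 0.669) and 0.37 ± 0.54 in Amiloride (adjusted p = 0.639). Leaving out 1 library gave -0.60 to -0.051 in Finerenone, -1.07 to -0.34 in Spironolactone and 0.28 to 0.52 in Amiloride. Seen from the DCT, the share of nuclei with a PC neighbour was 15.7% and 13.1% in Control and 14.7% and 14.8% in DOCA, and it was lowest in the Finerenone Multiome library (8.24%).

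Of the 11 neighbour labels, 2 passed between DOCA and Control (18.2%), PST and MyoFib. PC nuclei with a PST neighbour were 1 of 46 and 9 of 331 in Control (2.17% and 2.72%), 13 of 152 and 86 of 863 in DOCA (8.55% and 9.97%), between 8.09% and 10.4% in the Finerenone and Spironolactone libraries and 4.51% in Amiloride. The DOCA difference in log2 odds was 1.74 ± 0.39 (limma, adjusted p = 0.0332). The call was lost without any 1 of the Control, DOCA or Finerenone libraries, with an adjusted p from 0.0669 to 0.233. It was also lost with 5 neighbours (1.59, adjusted p = 0.0883), with 50 (0.85, adjusted p = 0.115) and with only DOCA and Control fitted (adjusted p = 0.0678), and the difference turned to -1.55 (adjusted p = 0.142) when at least 3 PST neighbours were required. For MyoFib only 1 PC nucleus in all had such a neighbour, so that test reflects the count of 0.5 added to each library and not a border. In the 3 comparisons of a drug with DOCA, 0 of 11 neighbour labels passed in limma (0%), with 1, 0 and 4 at an unadjusted p under 0.05 for Finerenone, Spironolactone and Amiloride. With 50 neighbours 5 of 11 passed in Amiloride, and with neighbours from other libraries only 1 of 11 passed in Spironolactone. An IC neighbour was seen for 81 of 799 PC nuclei in Amiloride (10.1%) and for 2.67% to 5.19% in the other libraries, a log2 difference from DOCA of 1.44 ± 0.55 (adjusted p = 0.106). With neighbours taken from other libraries only it was -0.14 (adjusted p = 0.955).

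The spread of PC nuclei was taken as the median distance to the PC centre. It was 1.18 and 1.24 map units in Control, 1.22 and 1.24 in DOCA, 1.14 and 1.25 in Finerenone, 1.10 and 1.28 in Spironolactone, and 0.927 in Amiloride, which lay below the other 8 libraries. The log2 difference between Amiloride and DOCA was -0.46 ± 0.12 (limma, adjusted p = 0.118 over 12 labels). DOCA differed from Control by 0.02 ± 0.09 (interval -0.21 to 0.26), Finerenone from DOCA by -0.04 ± 0.09 and Spironolactone from DOCA by -0.05 ± 0.09. In each of these 4 comparisons 0 of 12 labels passed in limma (0%), and 4, 3, 1 and 0 did at an unadjusted p under 0.05 for DOCA against Control and for Amiloride, Finerenone and Spironolactone against DOCA. By the 90th percentile of the distance 3 of 12 labels passed in DOCA against Control, without the kit term 1 of 12 passed in Finerenone, and with a trended, robust prior 1 of 12, PC itself, passed in Amiloride (adjusted p = 0.0351). Among the PC neighbours of a PC nucleus, those from its own library were 1.64 times as frequent as its library's share of PC nuclei in Control scATAC, 1.37 times in Amiloride and 0.743 times in Finerenone scATAC, and between 1.04 and 1.44 times in the other 6 libraries.

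Along the line from the DCT centre (0) to the PC centre (1), the median position of PC nuclei was 0.924 and 1.04 in Control, 0.898 and 0.931 in DOCA, 0.845 and 1.04 in Finerenone, 0.908 and 1.02 in Spironolactone and 0.933 in Amiloride. In the 4 groups with both kits the scATAC library lay nearer the DCT than the Multiome library. Of all PC nuclei 258 (7.62%) lay nearer the DCT end, at a position under 0.5, with between 2.17% and 9.42% in a library. The exact permutation test of the 5 groups within kits gave p = 0.5 for the median position.

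**Figure D4:**
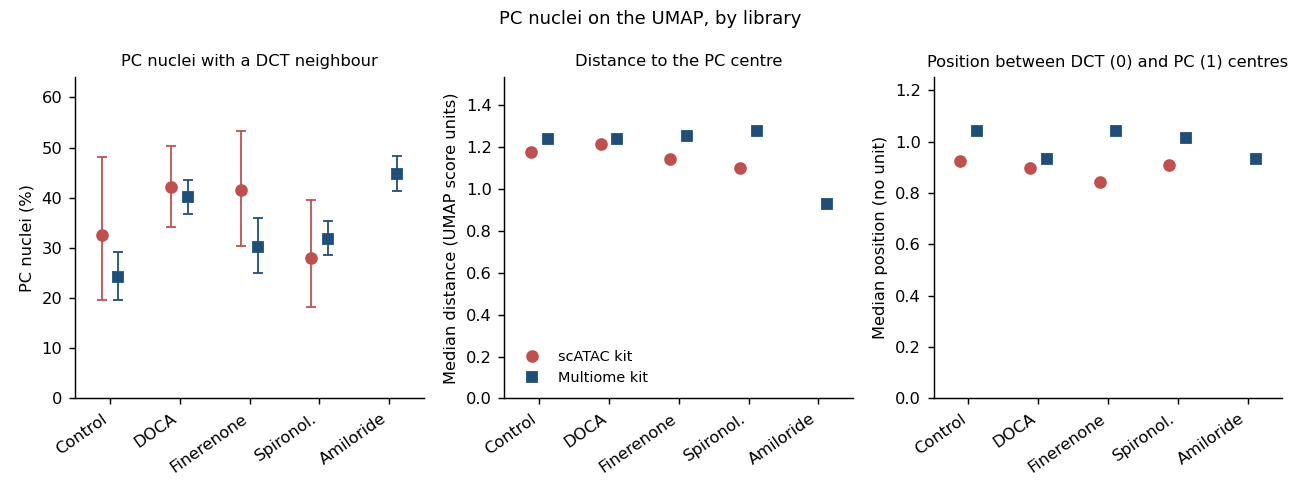
Share of PC nuclei with at least 1 DCT nucleus among the 15 nearest (left, with exact 95% intervals), median distance to the PC centre in map units (middle) and median position between the DCT and PC centres (right), for the 9 libraries by group; all axes start at 0. The Amiloride library has the highest border share (44.8%) and the lowest distance (0.927).

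The same permutation test, in which group labels were exchanged within kits over 2880 assignments (120 distinct, smallest possible p = 0.00833), asked of each PC measure whether any of the 5 groups differed. The exact permutation p = 0.025 was found for the ratio to IC, p = 0.0333 for the share of LOH, DCT, PC and IC nuclei, p = 0.117 for the share of non-proximal nuclei and p = 0.267 for the share of all nuclei. For the share with a DCT neighbour the exact permutation p was 0.2 and for the spread 0.192. Adjusted over the 7 measures, the lowest permutation p was 0.117, for both the ratio to IC and the share of the 4 labels, so none passed 0.05. Before adjustment the ratio to IC passed 0.05 with all libraries but not without either Control library, the DOCA scATAC, the Finerenone Multiome or the Spironolactone Multiome library, where the exact permutation p ran from 0.0521 to 0.15. The share of the 4 labels no longer passed without either Control library, the DOCA scATAC library, either Spironolactone library or the Amiloride library, with an exact permutation p from 0.0521 to 0.167. A comparison of 2 groups with 1 library in each kit cannot reach 0.05 by permutation within kits.

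**Figure D5:**
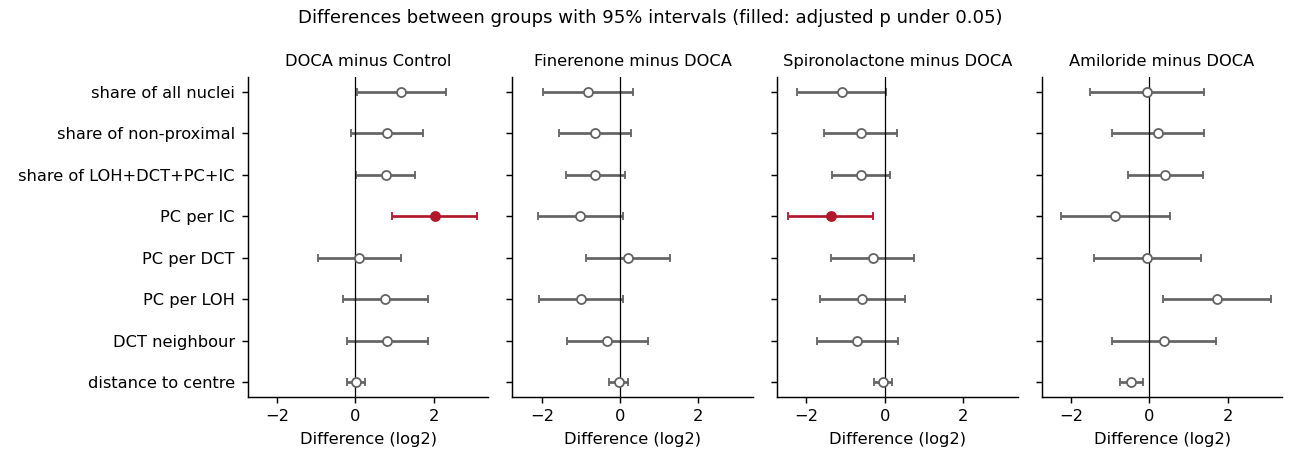
Log2 differences with 95% intervals from limma (horizontal axis) for 8 PC measures in the 4 comparisons named above the panels; filled red points have an adjusted p under 0.05. Only the ratio to IC passes, upward in DOCA against Control (2.03) and downward in Spironolactone against DOCA (-1.38).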

How the data were processed

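Nuclei of 9 whole-kidney libraries were analysed from 2 deposited tables, one with library code, treatment and cell type label per nucleus and one with UMAP coordinates. The authors sequenced the nuclei on 10x kits and used Cell Ranger ATAC 1.1.0 and Signac 1.3.0 on build rn6, per the labels and processing notes, then filtered nuclei by fragments, reads in peaks, nucleosome signal and start-site enrichment, removed batch effects with Harmony, clustered and labelled the nuclei. The UMAP values are scores as deposited by the authors, computed over all libraries together. No accessibility counts were used. Doublet removal is not given in the sources used here, and none was done.

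Library codes were matched to samples by treatment and, within a treatment, by kit, which was read from the barcodes shared between libraries. Nuclei were counted per library and label. Log2 odds, with 0.5 added to each count, were fitted in limma 3.58.1 (R 4.3.3), with terms for group and kit and all 9 libraries, moderated over all labels and adjusted by Benjamini-Hochberg over the labels of a comparison. Ratios, neighbour shares (15 nearest nuclei, at least 1 of the label) and log2 distances were fitted alike. Exact permutations exchanged groups within kits. Neighbours, k-means and linkage (radius 0.3, at least 5 points) came from scikit-learn 1.9.0. Of the limma fits, that of the shares of all nuclei was tested on simulated data. The simulation had independent noise and changes larger than the PC share differences found. The other limma fits were not tested in this way. LOH, DCT and IC were named beside PC wherever they passed, and of the other labels at most 2 per comparison, those passing with the lowest adjusted p. The members, lists and tests were chosen with earlier results of these data known. The denominator without LOH and the 4 map parts were chosen after seeing the data. Alternatives changed the kit term, transformation, prior, groups fitted, neighbour rule, measure of spread and single libraries.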

Additional observations from a re-analysis of the deposited data

How the results depend on the processing

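Of 752 values from 59 results under an alternative, 648 kept their direction and side of the 0.05 threshold, 69 no longer passed, 18 newly passed and 17 reversed; the causes were not tested. Adjusted p-values are from limma. Fitting only the 2 groups compared left the differences as they were and changed the adjusted p for the share of all nuclei in Spironolactone against DOCA (-1.10, 0.0395), for the share of LOH, DCT, PC and IC nuclei in DOCA against Control (0.77, 0.0384) and for the ratio to IC in DOCA against Control (2.03, 0.0724); it could not be fitted for Amiloride, which has 1 library. Without the kit term the Amiloride share of all nuclei against DOCA was 0.38, its share of the 4 labels against Control 0.99 (0.0773) and the Spironolactone ratio to IC against DOCA -1.38 (0.182). A trended, robust prior gave 0.77 (0.0381) for the DOCA share of the 4 labels, 0.82 (0.0365) for its DCT neighbours and -0.46 (0.0351) for the Amiloride spread. On the arcsine scale the DOCA difference was 0.0955 for non-proximal nuclei and 0.109 for the 4 labels, both passing, and Amiloride against DOCA was 0.0039 for all nuclei; by centred log-ratio it was 0.24. Without LOH the differences were 0.79 in DOCA, 0.61 in Finerenone and 0.51 in Amiloride against Control, and -0.61 in Spironolactone and -0.27 in Amiloride against DOCA. The DOCA spread around each library's own point was -0.014. The DOCA difference in PST neighbours was -1.55 with at least 3 required, and the Amiloride difference in IC neighbours -0.14 with other libraries only.

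Leaving out 1 library at a time gave ranges of 0.53 to 1.82 (DOCA against Control) and -0.25 to 0.095 (Amiloride against DOCA) for all nuclei. For the 4 labels they were -0.020 to 0.31 (Finerenone) and 1.12 to 1.29 (Amiloride) against Control. For the ratio to IC they were 1.64 to 2.42 (DOCA against Control) and -1.78 to -0.99 (Spironolactone against DOCA), and for the ratio to DCT -0.10 to 0.31 (DOCA against Control). For the spread they were -0.028 to 0.089 (DOCA against Control), -0.10 to 0.019 (Finerenone against DOCA) and -0.12 to 0.015 (Spironolactone against DOCA). Exact permutation p-values ran from 0.0312 to 0.292 for non-proximal nuclei, 0.0104 to 0.167 for the 4 labels and 0.0167 to 0.15 for the ratio to IC. Counts of labels passing depended on these choices: between DOCA and Control 0 to 6 of 12 for all nuclei, 2 to 5 of 9 for non-proximal nuclei and 0 to 7 of 11 for the ratios, and between a drug and DOCA 0 to 7 of 12, 0 to 5 of 9 and 0 to 5 of 11. For neighbour labels they ran from 0 to 4 of 11 between DOCA and Control and from 0 to 5 between a drug and DOCA, and for the spread from 0 to 3 and from 0 to 1 of 12. For the LOH, DCT, PC and IC shares 3 labels passed in DOCA against Control when only these groups were fitted. Between a drug and DOCA the counts on that scale ran from 0 to 2, and in Amiloride against Control from 0 to 3. The numbers of PC nuclei in the scATAC libraries (46 to 152) limit what can be detected there.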

Other observations

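The rank of PC among the 12 labels by number ran from 9th in the Control scATAC library and 8th in the Control Multiome library to 6th in both DOCA libraries and 4th in the Amiloride library. It was 7th and 6th in Finerenone and 8th and 7th in Spironolactone. Among the 9 non-proximal labels PC was 3rd in both DOCA libraries, in the Finerenone Multiome library and in Amiloride, and 6th and 5th in Control.

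DCT nuclei, which share the PC island, made up 19.8% and 21.9% of LOH, DCT, PC and IC nuclei in Control, 29.9% and 29.5% in DOCA, 23.8% and 13.9% in Finerenone, 30.7% and 23.0% in Spironolactone and 34.8% in Amiloride. Their median distance to the DCT centre was 1.13 and 0.914 map units in Control, 1.31 and 1.18 in DOCA, 1.25 and 0.888 in Finerenone, 1.10 and 1.21 in Spironolactone and 1.02 in Amiloride. IC nuclei lay at a median of 0.834 and 0.863 map units from the IC centre in Control, 0.670 and 0.691 in DOCA, 0.671 and 0.747 in Finerenone, 0.842 and 0.731 in Spironolactone and 0.960 in Amiloride. Between DOCA and Control the log2 distance differed by 0.29 ± 0.17 for DCT (limma, adjusted p = 0.257) and by -0.32 ± 0.11 for IC (adjusted p = 0.123).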
